A study of Drosophila melanogaster with 14 samples.

Results

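Among 15288 genes measured in Drosophila melanogaster embryos of 3 maternal mutants and of wild type (wt), 10 genes are described here that stood at least 4-fold above wt in each mutant, that is in grp fs1, Slbp 10/12 and also Slbp 10/15 embryos. They were chosen by their mean normalized counts in these mutants and in wt, and are phr6-4, BthD, dpr6, CG13375, CG32816, CR43960, CG2750, CG12560, CG30059 and CG42565. Each was found by its symbol in the table of the mutants and in the table of wt stages and extracts (15682 genes), under 1 gene ID in both. Since those means chose them, their height above wt is given as a description, with no test. Tests are kept to differences between mutants and to the wt stages and extracts, and the same mutant libraries that took part in the choice also enter the first of these.

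Mutant embryos were collected 0 to 180 min after egg laying and came from trans-heterozygous mothers carrying grp fs1, Slbp 10/12 or Slbp 10/15, crossed to wt OregonR males; wt embryos of the same window served for comparison. In the other table, nuclear and cytoplasmic extracts of wt embryos of 90 to 180 min (late) stand beside total extracts of wt embryos of 0 to 45 min (early). Each of the 7 groups gave 2 libraries of total RNA depleted of ribosomal RNA. Oregon R is named as the background strain of every sample, but the grp fs1 and Slbp stocks came from other laboratories than the wt line, and the mutation and the rest of the stock's genome cannot be told apart in these embryos. The sources used here do not state that the 2 libraries of a group are separate collections, and p-values therefore reflect the spread of these libraries alone. Each collection pools many stages and cell types, in which more cells and more RNA per cell cannot be told apart.

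The grp gene (grapes) encodes the fly's Chk1, a kinase of the DNA replication checkpoint that lengthens the last syncytial cleavage cycles before the embryo's own genes are switched on. Slbp encodes the stem-loop binding protein, which binds the 3′ end of histone mRNAs and is needed for their processing and translation. Both proteins are supplied to the egg by the mother, which is why the mother's genotype defines the mutant. Loss of maternal supply of either is known for defects of the early cleavage cycles. The 10 genes share no known pathway. phr6-4 encodes a photolyase that repairs (6-4) photoproducts of UV damage with light, BthD a small selenoprotein, dpr6 a cell surface protein with immunoglobulin domains made in neurons, and CR43960 a long non-coding RNA. The other 6 are listed by annotation number, and no role is given for them here.

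Values are normalized counts, reads divided by 1 size factor per library. The libraries held 17368684 to 23410870 reads in the mutant table and 26817392 to 33866670 in the other, and 3 reads in 1 library correspond to 2.62 to 3.49 normalized counts in the mutant table and 2.25 to 3.95 in the other. The test took the genes whose mean reached 5 in any group (9868 and 10335 genes) and used limma on log2(normalized count + 1), two-sided, and called at a Benjamini-Hochberg adjusted p under 0.05. The mutated genes fitted their labels. grp averaged 1888 ± 241 normalized counts in grp fs1 embryos, against 13710 ± 571 in wt (SD, n = 2 each), and Slbp averaged 223 ± 18.0 in Slbp 10/12 and 224 ± 54.0 in Slbp 10/15 embryos, against 2825 ± 68.7 in wt (SD, n = 2 each). The median change of all tested genes was -0.10, -0.11 and -0.19 (log2) in grp fs1, then Slbp 10/12, then Slbp 10/15 embryos against wt, and -0.41, -0.49 and -0.56 when libraries were scaled by their upper quartile instead. The 16 early zygotic patterning and cellularization genes summed to between 5650 and 10680 normalized counts per mutant library, against 24654 and 24847 in wt. The sums were 9141 to 13143 against 25715 and 27051 for 10 muscle genes, 841 to 1356 against 2163 and 2631 for 8 neuron genes, and 152292 to 170699 against 165584 and 167483 for 10 maternal genes. Sums follow the most abundant genes of a list. Median changes (log2) in grp fs1, then Slbp 10/12, then Slbp 10/15 embryos were -5.66, -8.96 and -8.20 for the muscle genes. They were -2.50, -4.76 and -4.65 for neuron, -2.71, -3.86 and -2.92 for early zygotic, and 0.14, 0.03 and -0.22 for maternal genes. Some muscle and neuron genes had 0 in both libraries of an Slbp mutant, so these medians depend on the count of 1 added. Markers of follicle cells summed to 0 to 15.7 in mutant and 3.49 to 7.64 in wt libraries, and those of testis to 0 in all mutant and 0 to 1.16 in wt libraries. What part these shifts have in the levels of the 10 genes was not tested.

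All 10 genes stood above wt in both libraries of each mutant. Over all tested genes 29.5% in grp fs1 embryos, 29.4% in Slbp 10/12 embryos and 31.8% in Slbp 10/15 embryos did so, and 0.79%, 1.24% and 1.38% reached a 4-fold mean. In all 3 mutants at once 0.355% reached it. Since these contrasts chose the genes, nothing is read from their count. The median ratio of mutant to wt means over the 10 genes was 23.2 in grp fs1 embryos, 32.4 in Slbp 10/12 embryos and 26.6 in Slbp 10/15 embryos. All 10 kept at least 4-fold in each mutant after upper quartile scaling, after adding 5 to each mean, and without each library in turn.

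**Figure D1:**
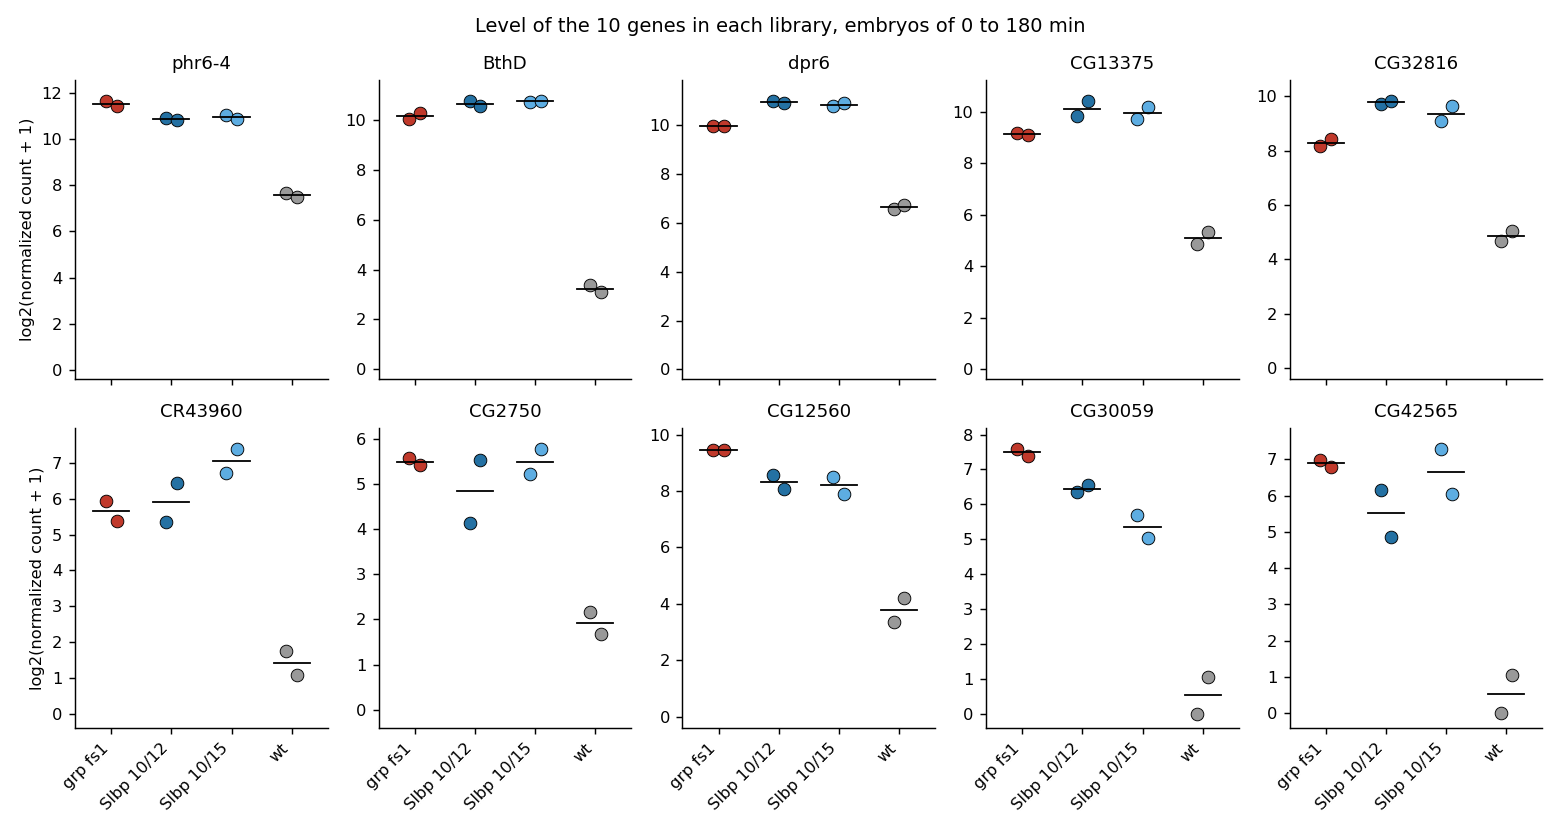
Log2(normalized count + 1) of each of the 10 genes (y axis) in the grp fs1, Slbp 10/12, Slbp 10/15 and wt embryos (x axis), with a point per library and a line at the mean of the 2 libraries. All mutant points lie above both wt points in every panel, and the scale of the y axis differs between panels.

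phr6-4 was the most abundant of the 10 per length in grp fs1 embryos. It is annotated at chr2L:20643351-20645791 on the minus strand, with 7 exons, in BDGP6.54, the build used for all positions here. Its normalized counts were 3174 and 2766 in the libraries of grp fs1, 1929 and 1823 in those of Slbp 10/12 and 2084 and 1835 in those of Slbp 10/15, against 200.1 and 180.0 in wt. The groups did not overlap, and the means stood 15.6-fold, 9.87-fold and 10.3-fold above wt. Per length, its mean was 64.1 FPKM (fragments scaled by gene length and library size) in grp fs1 and 4.10 in wt embryos, above 83.8% and 34.3% of tested genes. It thus sat high among expressed genes in grp fs1 embryos and low among them in wt.

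BthD reached the highest level per length in the Slbp mutants and showed the clearest separation from wt. It lies at chrX:13612131-13613228 on the plus strand, with 3 exons. Its normalized counts were 1065 and 1237 in the libraries of grp fs1, 1722 and 1498 in those of Slbp 10/12 and 1716 and 1734 in those of Slbp 10/15, against 9.31 and 7.64 in wt, which are 8 and 7 reads. The lowest mutant library stood 114 times above the higher wt library. The ratios of means were 136, 190.0 and 204. Its mean was 80.9 FPKM in Slbp 10/15 and 0.397 FPKM in wt embryos, above 88.5% and 13.4% of tested genes.

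dpr6 spans 164710 bases at chr3L:9974651-10139360 on the plus strand. Its normalized counts were 986 and 1006 in the libraries of grp fs1, 2011 and 1890.0 in those of Slbp 10/12 and 1774 and 1888 in those of Slbp 10/15, against 93.1 and 104.7 in wt. The libraries of a group lay close together, and the grp fs1 libraries stood between those of wt and of the Slbp mutants. The ratios of means were 10.07, 19.7 and 18.5.

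CG13375 and CG32816 are neighbours near the tip of the X chromosome. CG13375 lies at chrX:283186-294962 and CG32816 at chrX:316576-470726, both on the minus strand, 21613 bases apart with 2 genes starting between them. CG13375 had 571 and 552 normalized counts in the libraries of grp fs1, 902 and 1359 in those of Slbp 10/12 and 837 and 1153 in those of Slbp 10/15, against 27.9 and 39.3 in wt. CG32816 had 286 and 341 in the libraries of grp fs1, 842 and 900.0 in those of Slbp 10/12 and 538 and 787 in those of Slbp 10/15, against 24.4 and 31.6 in wt. In both genes the grp fs1 libraries were the lowest of the mutants and still far above wt. CG13375 was 16.7, 33.7 and 29.6 times its wt mean and CG32816 11.2, 31.1 and 23.6 times.

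CR43960 and CG2750 share a stretch of the X chromosome, since CG2750 (chrX:12107200-12113357) lies wholly inside the span of CR43960 (chrX:12043698-12116041) on the same strand, with no exon in common. CR43960 had 60.6 and 40.5 normalized counts in the libraries of grp fs1, 40.3 and 85.6 in those of Slbp 10/12 and 105.4 and 166 in those of Slbp 10/15, against 2.33 and 1.09 in wt, which are 2 reads and 1. The ratio of read rates was 30.0 in grp fs1 (95% exact counting interval 9.99 to 148), 37.6 in Slbp 10/12 (12.6 to 184) and 81.4 in Slbp 10/15 (27.5 to 397). These intervals, and all others of read rates here, cover counting error only.

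CG2750 had 46.7 and 41.4 normalized counts in the libraries of grp fs1, 16.5 and 45.4 in those of Slbp 10/12 and 36.2 and 53.4 in those of Slbp 10/15, against 3.49 and 2.18 in wt. Here the mutants overlapped each other, and the 2 libraries of Slbp 10/12 differed more than the mutants' means did. The ratios of means were 15.5, 10.9 and 15.8, over 5 reads in wt. It was the least abundant of the 10 per length, at 0.247 to 0.357 FPKM in the mutants and 0.0226 FPKM in wt embryos.

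CG12560 (chr2L:8008302-8009477, minus strand) was highest in grp fs1 embryos, as phr6-4 was. Its normalized counts were 697 and 709 in the libraries of grp fs1, 379.8 and 268 in those of Slbp 10/12 and 366 and 236 in those of Slbp 10/15, against 9.31 and 17.5 in wt. The ratios of means were 52.5, 24.2 and 22.5.

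CG30059 and CG42565 were all but absent from wt, with 1 read over the 2 wt libraries for each. CG30059 (chr2R:13412769-13414620, minus strand) had 189 and 168 normalized counts in the libraries of grp fs1, 80.5 and 92.6 in those of Slbp 10/12 and 50.5 and 31.7 in those of Slbp 10/15, against 0 and 1.09 in wt. The ratio of read rates was 317 in grp fs1 (95% exact counting interval 56.6 to 12560.2), 154 in Slbp 10/12 (27.3 to 6115) and 72.1 in Slbp 10/15 (12.6 to 2884). CG42565 (chr2R:22657901-22661389, plus strand) had 126 and 109 in the libraries of grp fs1, 70.5 and 28.0 in those of Slbp 10/12 and 154 and 65.3 in those of Slbp 10/15, against 0 and 1.09 in wt. Its ratio of read rates was 209 in grp fs1 (37.2 to 8286), 86.6 in Slbp 10/12 (15.2 to 3449) and 190.5 in Slbp 10/15 (33.8 to 7559). The wide upper bounds come from that 1 wt read.

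In total, 93 genes had means at least 4-fold above wt in all 3 mutants, 66 of them with a wt mean of 0. A mean of at least 5 in each mutant was reached by 24 of the 93, which are the 10 genes and 14 others. Ordered by their lowest fold, the 10 took places 1 to 5, 7 and 10 to 13, with phr6-4 the last at 9.87. CG11023 (17.5), snoRNA:Psi18S-1854a (11.9) and lectin-33A (11.6) stood among them, and Cyp6d2 (8.96), CG5455 (7.29) and Drep-1 (6.74) came next. Around the threshold itself, Muc11A (4.20) and CG13982 (4.01) were just inside, and CG34423 (3.96) and CG32373 (3.86) just outside. In the other direction, 1960 genes had a wt mean of at least 5 and fell to a mean 4-fold or more below it in all 3 mutants.

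**Figure D2:**
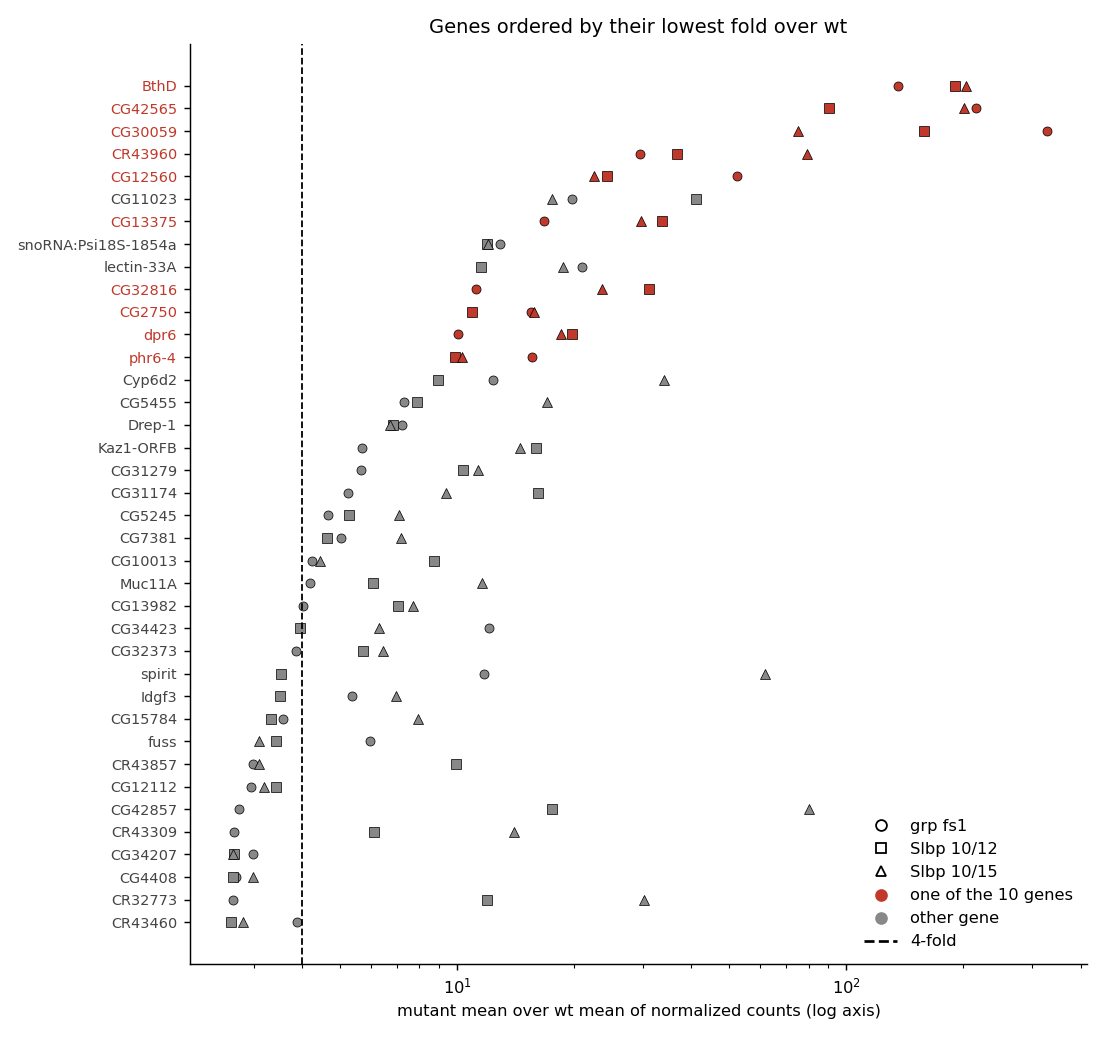
Ratio of each mutant's mean to the wt mean (x axis, log scale) for 38 genes whose mean reached 5 in each mutant, with some wt read and a lowest ratio of at least 2.5, ordered from top to bottom by that lowest ratio. The 10 genes (red) take 10 of the upper 13 places, all to the right of the dashed 4-fold line, and of these 10 CG30059 shows the widest spread between mutants.

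The first question tested was whether the 10 genes stood at the same level in grp fs1 as in the Slbp embryos. They did not all do so, since 7 of the 10 differed between grp fs1 and the mean of the Slbp mutants, beside 35.7% of all tested genes. Higher in grp fs1 were 3 of 10 (19.4% of all genes), and lower were 4 of 10 (16.3%). The median difference was -0.10 (log2) over the 10 genes and 0.05 over all. The higher ones were CG30059, by 1.58 ± 0.43 (log2, SE; adjusted p = 0.0261, limma), CG12560, by 1.20 ± 0.30 (adjusted p = 0.019, limma), and phr6-4, by 0.63 ± 0.09 (adjusted p = 0.00223, limma). In all 3, both grp fs1 libraries were above the 4 Slbp libraries.

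The lower ones were CG32816, BthD, CG13375 and dpr6. CG32816 differed by -1.27 ± 0.19 (log2, SE; adjusted p = 0.00314, limma), and dpr6 by -0.92 ± 0.08 (adjusted p = 3.03e-04, limma). CG13375 differed by -0.89 ± 0.22 (adjusted p = 0.0183, limma) and BthD by -0.54 ± 0.12 (adjusted p = 0.0136, limma). Both grp fs1 libraries were below the 4 Slbp libraries in each of these 4 genes. CG2750 (0.33, 95% interval -0.85 to 1.51), CG42565 (0.80, -0.55 to 2.15) and CR43960 (-0.82, -1.92 to 0.28) were not called, and their intervals include differences as large as some of those called. phr6-4, dpr6 and CG32816 kept their call under every alternative run. CG30059, CG12560, CG13375 and BthD lost it without some library, leaving 3 calls without grp fs1 replicate 1 and 4 each without grp fs1 replicate 2 and without Slbp 10/15 replicate 2, and BthD (-0.47) also after upper quartile scaling.

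**Figure D3:**
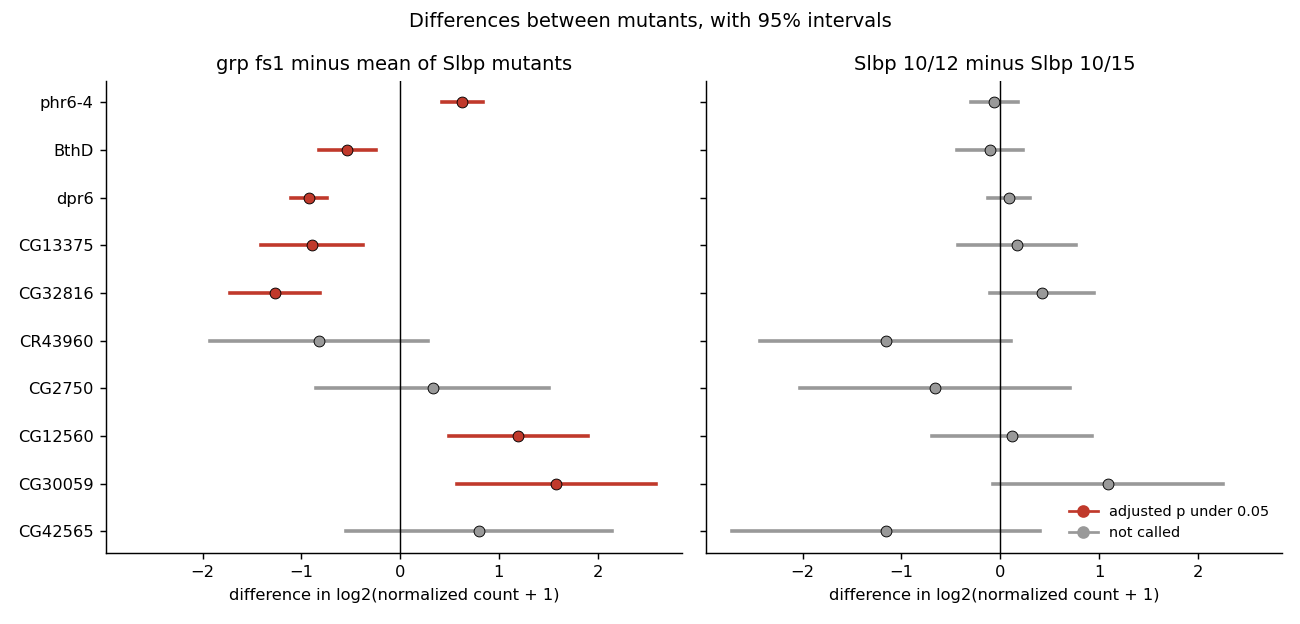
Difference in log2(normalized count + 1) (x axis) for the 10 genes (y axis), with the 95% interval of the limma fit over 8 libraries, for grp fs1 minus the mean of the Slbp mutants (left) and for Slbp 10/12 minus Slbp 10/15 (right). On the left 7 intervals belong to called genes (red), 3 above and 4 below 0, and on the right none of the 10 was called.

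Between the allele combinations of Slbp, limma called 0 of the 10 genes, at an adjusted p under 0.05 or at an unadjusted p under 0.05. Of all genes 3.29% were called at the adjusted p, 1.81% as higher and 1.48% as lower in Slbp 10/12. edgeR and DESeq2 on the whole reads called 0 as well. The differences of phr6-4 (-0.06, 95% interval -0.30 to 0.18), dpr6 (0.09, -0.12 to 0.30) and BthD (-0.10, -0.43 to 0.23) were bounded closely. Those of the rarer genes were not, with CG42565 (-1.15, -2.71 to 0.40), CG2750 (-0.66, -2.02 to 0.70), CR43960 (-1.16, -2.43 to 0.11) and CG30059 (1.09, -0.08 to 2.26) the widest of the 10. For these 4 a difference of a few fold between Slbp 10/12 and Slbp 10/15 could not be detected with 2 libraries each.

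The libraries of wt stages and extracts, which had no part in choosing the genes, gave levels of these RNAs in early total embryos and late extracts. The table was normalized apart from that of the mutants, and its levels are not set against those above. snRNA:7SK, a nuclear RNA, averaged 51071 ± 3632 normalized counts in nuclear and 853983 ± 298762 in cytoplasmic extracts (SD, n = 2 each), the opposite of what those names say; the extracts keep their labelled names below. Other genes differed between the extracts too, with 6 of 16 early zygotic genes higher and 0 lower in nuclear extracts (median 0.96, log2) and 1 of 10 maternal genes higher and 8 lower (median -2.23). Of the 10 genes, 8 passed the filter. CG30059 had 0 reads in all 6 libraries, which allows up to 3 reads in each, and CG42565 had 2 reads in nuclear replicate 1 and 0 elsewhere.

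**Figure D4:**
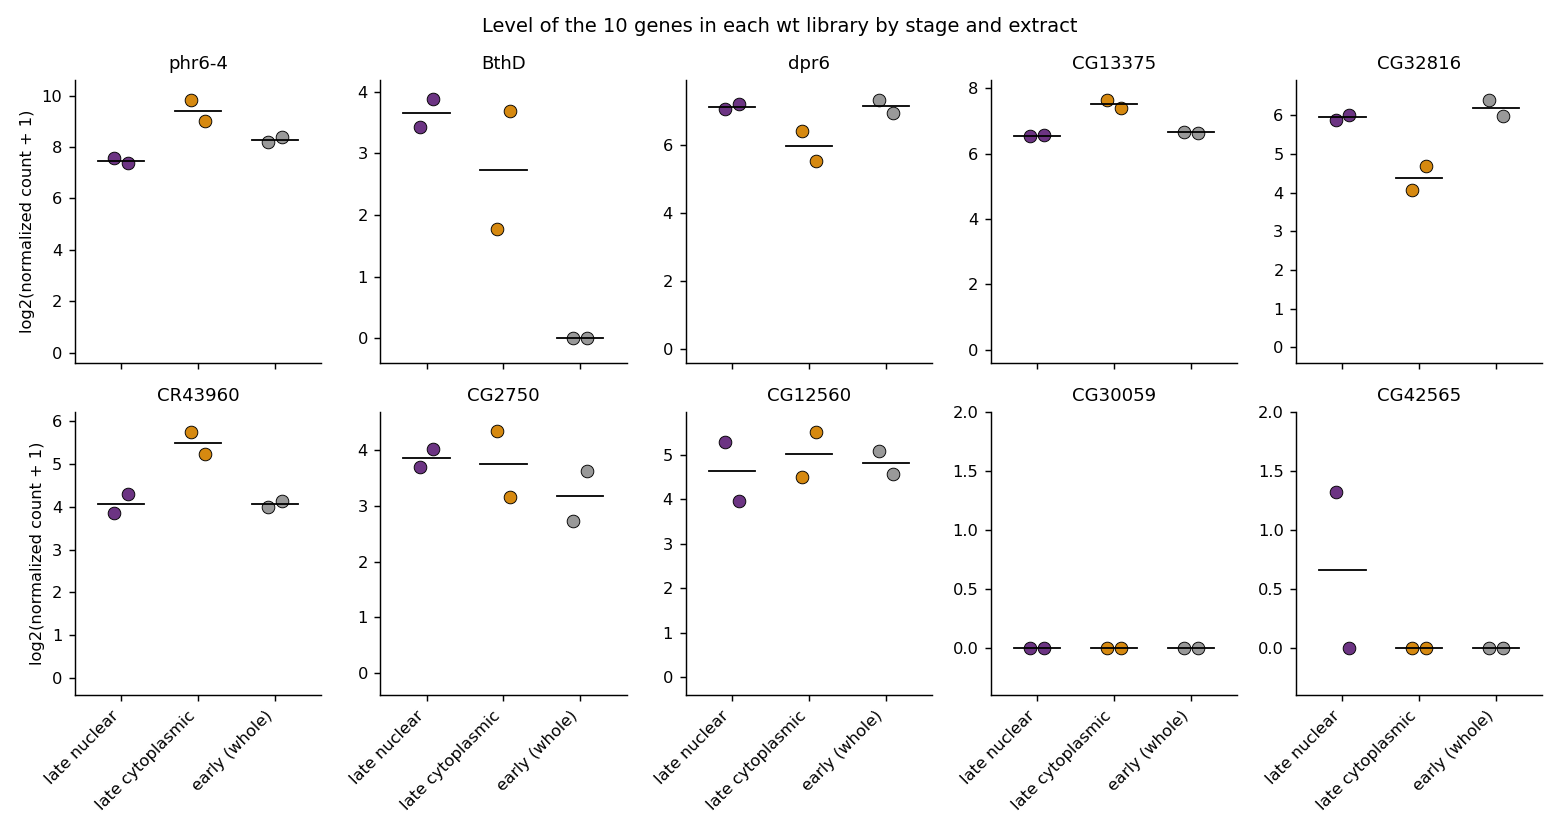
Log2(normalized count + 1) of the 10 genes (y axis) in late nuclear, late cytoplasmic and early total libraries of wt embryos (x axis), with a point per library and a line at the mean of the 2. phr6-4 is highest in both cytoplasmic libraries, CG32816 lowest there, BthD at 0 in both early libraries, and CG30059 at 0 in all 6, with y scales that differ between panels.

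Between late nuclear and late cytoplasmic extracts, 2 of the 8 genes were called, 1 higher and 1 lower in nuclear extracts, beside 26.9% and 28.6% of all genes (55.5% in either direction). The median of all genes was 0.24 (log2), or 0.64 after upper quartile scaling. phr6-4 had 188 and 164 normalized counts in nuclear, against 907 and 512 in cytoplasmic extracts, a difference of -1.95 ± 0.39 (log2, SE; adjusted p = 4.97e-04, limma). The extracts did not overlap, and the call held in every alternative. CG32816 went the other way, with 58.5 and 63.9 in nuclear, against 15.7 and 25.0 in cytoplasmic extracts, a difference of 1.58 ± 0.55 (adjusted p = 0.0232, limma). Its call was lost without nuclear replicate 1 (1.64), nuclear replicate 2 (1.51) or cytoplasmic replicate 1 (1.26), though the direction stayed.

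Among the genes not called, 3 missed the threshold narrowly. dpr6 had 129.7 and 143 normalized counts in nuclear, against 83.3 and 44.8 in cytoplasmic extracts (1.14 ± 0.49, adjusted p = 0.0553, limma). CR43960 had 13.5 and 18.6 in nuclear, against 53.1 and 36.9 in cytoplasmic extracts (-1.42 ± 0.61, adjusted p = 0.0579, limma). CG13375 had 91.4 and 93.1 in nuclear, against 199 and 166 in cytoplasmic extracts (-0.97 ± 0.45, adjusted p = 0.0756, limma). The neighbours CG13375 and CG32816, both lowest in grp fs1 among the mutants, lay on opposite sides here. Without cytoplasmic replicate 2 there were 4 calls, CR43960 and CG13375 among them (-1.68 and -1.10), and without cytoplasmic replicate 1 dpr6 was called (1.58).

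CG12560 had 38.2 and 14.6 normalized counts in nuclear, against 21.7 and 44.8 in cytoplasmic extracts. CG2750 had 12.0 and 15.4 in nuclear, against 19.3 and 7.90 in cytoplasmic extracts. Both overlapped between extracts, and their intervals ran from -1.77 to 1.00 and from -1.40 to 1.64 (log2).

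Against early total embryos, where stage and kind of extract cannot be told apart, BthD was the 1 gene called in nuclear extracts, beside 24% of all genes (8.35% higher). It had 9.74 and 13.8 normalized counts in nuclear and 2.41 and 11.9 in cytoplasmic extracts (30 and 11 reads), against 0 in both early libraries. Set against the floor of 3 reads over the early libraries, this is at least 8.62-fold higher in nuclear and at least 5.11-fold higher in cytoplasmic extracts. BthD passed the filter only through the late extracts and could only be called as higher than in early embryos. Its calls against early embryos are therefore given as a description. The nuclear call (adjusted p = 0.00368, limma) was lost without either nuclear library, leaving 0 calls, and under a filter of at least 5 in every library, which removes BthD. Without either cytoplasmic library phr6-4 was called too (-0.82), which makes 2.

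In cytoplasmic extracts against early embryos 3 genes were called, beside 36.9% of all genes, 2 of them higher (17.8%) and 1 lower (19%). BthD was higher (adjusted p = 0.0196, limma), again as a description only. So was phr6-4 by test, which had 289 and 336 normalized counts in early embryos (1.13 ± 0.39, adjusted p = 0.0333, limma). CG32816 was lower, against 84.1 and 62.9 in early embryos (-1.82 ± 0.55, adjusted p = 0.0173, limma). Leaving out 1 library of the early or nuclear pair left 0 calls in this comparison, and the 3 differences ranged then from 1.02 to 1.24 for phr6-4 and from -2.03 to -1.62 for CG32816, with BthD at 2.73 throughout. The BthD call was also lost without cytoplasmic replicate 2 (1.77), which holds 9 of the 11 reads behind its bound, with a pseudocount of 5 (1.16) and after upper quartile scaling (2.62).

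The genes not called against early embryos had reads in both early libraries. These held 158 and 120.6 normalized counts of dpr6, 100.01 and 98.8 of CG13375, 32.7 and 22.7 of CG12560, 15.0 and 16.6 of CR43960, and 5.61 and 11.4 of CG2750. dpr6 and CR43960 came near the threshold in cytoplasmic extracts, with differences of -1.16 ± 0.49 (adjusted p = 0.0703, limma) and 1.43 ± 0.61 (adjusted p = 0.076, limma). Of the 10 genes, then, 7 had reads in both early libraries and BthD, CG30059 and CG42565 had 0 in both.

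Relatives of dpr6, BthD and phr6-4 were followed in lists. The dpr family of neuronal surface receptors came first. Of 18 listed relatives of dpr6, 11 were tested, and 0 rose in any mutant while 9 fell in grp fs1 embryos, 11 in Slbp 10/12 embryos and 10 in Slbp 10/15 embryos, beside 28.7%, 33% and 38.9% of all genes. Their median changes were -2.83, -3.53 and -3.74 (log2), and -2.83, -2.70 and -2.51 with relatives at 0 set to a floor of 3 reads per group. dpr19 averaged 3.76, 6.66 and 6.70 normalized counts in grp fs1, then Slbp 10/12, then Slbp 10/15, against 39.96 in wt, and dpr18 averaged 4.22, 1.37 and 0.549, against 32.5 in wt. dpr7 and dpr12 averaged 0 to 4.24 in the mutants, against 26.2 and 24.2 in wt. All but dpr19 of the tested relatives had means under 5 in every mutant and passed the filter only through wt, where they are high, so that these counts and medians favour falls and are given as a description. The other 7 had means under 5 in every group. Over all 18 relatives the normalized counts summed to 7.46 and 51.8 in the libraries of grp fs1, 11.9 and 27.1 in those of Slbp 10/12 and 20.9 and 13.9 in those of Slbp 10/15, against 194 and 257 in wt. No tested relative exceeded 39.96 normalized counts in wt, below the 98.9 of dpr6 in the same embryos. The count of falls in grp fs1 was 6 without its replicate 1, 3 without wt replicate 1 and 1 without wt replicate 2. In Slbp 10/12 it was 3 without its replicate 1, and 4 and 3 without wt replicates 1 and 2, and in Slbp 10/15 it was 5 and 6 without these.

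**Figure D5:**
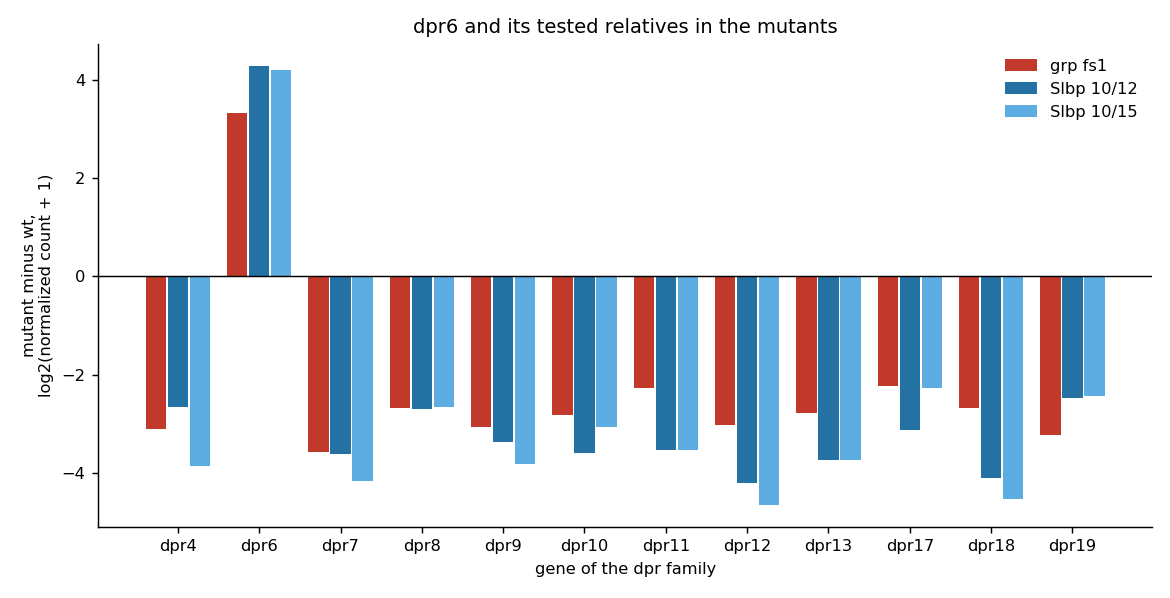
Difference from wt in log2(normalized count + 1) (y axis, means of 2 libraries, no error bars) for dpr6 and its 11 tested relatives (x axis) in grp fs1, then Slbp 10/12, then Slbp 10/15 embryos. The bars of dpr6 reach 3.32, 4.29 and 4.20, and every other bar lies below 0.

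Neuron markers, with which the dpr genes share a tissue, fell in the same direction as the family. Of 8 tested, 6, 7 and 6 fell in grp fs1, then Slbp 10/12, then Slbp 10/15 embryos, and 0 rose. In Slbp 10/12 embryos 3 of the 8 had 0 in both libraries, and in Slbp 10/15 embryos 2 did. Such genes passed the filter through another group and could only fall, so these counts are given as a description. Muscle genes fell in 6, 9 and 9 of 10, and early zygotic genes in 13, 15 and 16 of 16, with 0 rising. Of 10 maternal genes, 1 rose in each mutant and 0, 2 and 4 fell. Beside all these counts, 28.7%, 33% and 38.9% of all genes fell and 14.3%, 15.6% and 20.1% rose.

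For BthD, the list held genes of selenium use and redox control. Of 21 tested, 5 rose and 1 fell in grp fs1, 5 rose and 3 fell in Slbp 10/12, and 8 rose and 6 fell in Slbp 10/15 embryos, beside 14.3%, 15.6% and 20.1% of all genes rising, while after upper quartile scaling 0, 1 and 1 rose and 3, 7 and 10 fell. The medians were 0.05, 0.15 and 0.05 (log2). Trxr-1, thioredoxin reductase, averaged 13626, 10022 and 9831 normalized counts, against 11509 in wt. Its changes of 0.24, -0.20 and -0.23 were called in each mutant, as higher in grp fs1 and lower in the Slbp mutants. dhd, the maternal thioredoxin, averaged 52895, 52096 and 31829.9, against 49059 in wt, and passed the test in Slbp 10/15 (-0.62). The peroxiredoxin gene Jafrac1 passed there too (-0.42). GstD1, a glutathione transferase, passed in none and narrowly missed in Slbp 10/15 (-0.68 ± 0.25, adjusted p = 0.0501, limma). The fly's other selenoprotein genes, looked at for their kinship with BthD, were in the table as well. SelG averaged 222, 161 and 204 normalized counts, against 234 in wt, and passed the test in Slbp 10/12 (-0.54 ± 0.19, adjusted p = 0.0482, limma). Sps2, selenophosphate synthetase, averaged 1091, 1051 and 967, against 903 in wt, and passed in none.

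For phr6-4, the list held DNA repair genes and the other photolyase-like genes. Of 27 tested, 4 rose and 3 fell in grp fs1, 4 rose and 4 fell in Slbp 10/12, and 3 rose and 9 fell in Slbp 10/15 embryos, beside 14.3%, 15.6% and 20.1% of all genes rising and 28.7%, 33% and 38.9% falling, with medians of 0.09, -0.04 and -0.06 (log2), while after upper quartile scaling 0 rose in any mutant and 6, 15 and 15 fell. mus210, the damage sensor of nucleotide excision repair, averaged 10961, 10641 and 11230 normalized counts, against 9325 in wt, and rad50 of double-strand break repair 2929, 3188 and 3293, against 2744 in wt. The mismatch repair gene Msh6 averaged 6191, 5362 and 5369, against 6416 in wt, and its partner spel1 3625, 3436 and 3939, against 3490.5 in wt. These 4 genes stayed within 0.27 of wt on the log2 scale in either direction. Small as these changes were, some were called without upper quartile scaling. mus210 was called as higher in grp fs1 and Slbp 10/15, rad50 as higher and Msh6 as lower in both Slbp mutants, and spel1 in none. The photolyase gene phr, which repairs the other main UV lesion, averaged 633 normalized counts in grp fs1 embryos, 422 in Slbp 10/12 embryos and 342 in Slbp 10/15 embryos, against 703 in wt. It fell in both Slbp mutants (-0.74 ± 0.15, adjusted p = 0.00754, and -1.04 ± 0.15, adjusted p = 0.002, limma) and was not called in grp fs1 (-0.15 ± 0.15, adjusted p = 0.444, limma), while phr6-4 stood high in all 3. The light receptor gene cry had 0 in both grp fs1 libraries and 0.874 to 4.39 normalized counts in the Slbp libraries, against 6.98 and 4.36 in wt. It was called as lower in grp fs1 (-2.71 ± 0.54, adjusted p = 0.00849, limma) and in neither Slbp mutant. It passed the filter only through wt, with a mean of 5.67.

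Over the redox, repair and dpr lists, 22, 27 and 36 of 59 tested genes were called in grp fs1, then Slbp 10/12, then Slbp 10/15 embryos, 9, 9 and 11 of them as higher, beside 43%, 48.6% and 58.9% of all genes called. After upper quartile scaling 0, 1 and 1 were higher and 18, 33 and 36 lower. The counts fell to 9, 10 and 16 without wt replicate 1 and to 8, 13 and 18 without wt replicate 2. They were 14 in grp fs1 without its replicate 1, 12 in Slbp 10/12 without its replicate 1, and 21 in Slbp 10/15 without its replicate 2. Of the 22, 27 and 36 calls, 9, 11 and 10 were falls of dpr relatives, which the filter favours as described above. The pooled counts are therefore given as a description.

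On the genome, 5 of the 10 genes lie on X, 2 each on 2L and 2R, and 1 on 3L. Of the tested genes that matched the annotation (9659), 16.8% lie on X, and of the 14 other genes with 4-fold higher means in all mutants, 2 do. With CG13375 and CG32816 side by side and CG2750 within CR43960, the 5 genes on X come from 3 places.

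Neighbours were the 3 annotated genes before and the 3 after each gene in order of start position, not of distance. Some overlap the gene itself, and some overlapping genes, such as CG3777, are not among them. The neighbours came to 56, of which 45 are in the table and 21 were tested. Of these, 3 rose and 9 fell in grp fs1 embryos, 3 rose and 4 fell in Slbp 10/12, and 6 rose and 5 fell in Slbp 10/15, beside 14.3%, 15.6% and 20.1% of all genes rising and 28.7%, 33% and 38.9% falling. After upper quartile scaling 0, 1 and 2 neighbours rose and 9, 8 and 8 fell. Muc11A, a mucin gene within the span of CR43960, was the 1 neighbour of 21 (4.76%) with a 4-fold higher mean in all 3 mutants. It averaged 7.02, 10.19 and 19.4 normalized counts in grp fs1, then Slbp 10/12, then Slbp 10/15, against 1.67 in wt (3 reads). It passed the test in the Slbp mutants (2.01 ± 0.59 and 2.95 ± 0.59, adjusted p = 0.0277 and 0.00579, limma). Muc11A was named by these same contrasts and passed the filter only through the mutants, so its calls are given as a description. Without single libraries the counts of called neighbours dropped to 7 in grp fs1 (its replicate 1 left out), 6 (wt replicate 1) and 5 (wt replicate 2), in Slbp 10/12 to 4 and 2 (wt replicates 1 and 2), and in Slbp 10/15 to 5 (its replicate 2, or wt replicate 2).

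Next to CG12560, the 3 genes named for means at least 4-fold off wt in at least 2 mutants went the other way. Tg, a transglutaminase gene, had a mean of 10.8 in grp fs1 and 0 in both Slbp mutants, against 56.8 in wt, and fell in all 3 (adjusted p = 0.0264, 0.00176 and 0.00148, limma). Spn28Dc, a serpin gene, averaged 7.05, 0.915 and 0, against 15.1 in wt, and CG34010 averaged 7.50, 2.18 and 4.18, against 26.5 in wt; both fell in the Slbp mutants. Each of these 3 thus stood below wt in embryos where CG12560 itself was high. Their means in the Slbp mutants were all under 5, so their falls there rest on the wt level. The 3 genes were also named by these same contrasts, and all their falls are given as a description. The other tested neighbours of CG12560 differed from them. Sirup changed by 0.07, 0.12 and -0.14 (log2) and was called in none. Wwox changed by -0.75, 0.29 and 0.50, and was called as lower in grp fs1 and as higher in Slbp 10/15.

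Overlapping genes need care, since whether reads were counted by strand is not given in the sources used here, and reads of overlapping exons then cannot be told apart. Exons overlap between CG42565 and its same-strand neighbours CG13510 and CG13511, between BthD and tth, and between CG30059 and BaraA1, and CR43960 shares exons with Ten-a, not analysed here. CG13510 averaged 0.471, 0 and 0.549 normalized counts in grp fs1, then Slbp 10/12, then Slbp 10/15, against 6.15 in wt, and CG13511 had at most 1 read in any group. tth, a gene of the opposite strand, averaged 3750, 4116 and 3908, against 2737 in wt (0.45, 0.59 and 0.51 on the log2 scale, called in all 3). CG33470, which the annotation names BaraA1, had at most 2 reads in any group.

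CG32816 encloses y, the proneural genes ac, sc, l(1)sc and ase, and part of CG3777, whose exons share no base with its own. These and CG3777 were picked out after their values were seen. CG3777, which runs on the opposite strand and also overlaps CG13375, averaged 6.11, 27.5 and 40.1 normalized counts in grp fs1, then Slbp 10/12, then Slbp 10/15, against 247 in wt (-5.44, -3.21 and -2.63 on the log2 scale, called in all 3). ase averaged 0.942, 1.33 and 0.990, against 103.3 in wt, and l(1)sc 79.9, 53.2 and 50.8, against 482 in wt. ac averaged 51.2, 47.3 and 47.4, against 189 in wt, and ase, l(1)sc and ac were called as lower in all 3 mutants. ase passed the filter only through wt and could only fall. Since these genes were picked by their values, the calls are given as a description. sc averaged 166.8, 96.4 and 152.9, against 346 in wt, and was called in Slbp 10/12 (-2.01) but not in grp fs1 (-1.25) or Slbp 10/15 (-1.19). pcl, also inside CG32816, averaged 1.41, 4.93 and 5.94, against 2.80 in wt, and was called in none. Cyp4g1, which overlaps CG32816 too, averaged 15.0, 21.8 and 17.4, against 75.8 in wt, and was called as lower in all 3. y averaged 7.53 in grp fs1 embryos, 75.2 in Slbp 10/12 embryos and 102.0 in Slbp 10/15 embryos, against 54.1 in wt, and was called in grp fs1 (-3.78).

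Among 7428 genes whose mean reached 50 in some group, those whose log2 levels over the 8 mutant-table libraries ran closest to the mean of the 10 genes were Drep-1 (Pearson r = 0.996), ema (0.995), CG4408 (0.993) and CG14435 (0.992). The 10 genes' own r with that mean, of which each is part, was 0.95 to 0.996. These values describe 8 libraries in which wt stands against the mutants, and no p is given. Drep-1, which encodes a relative of DNA fragmentation factors, averaged 4058, 3846 and 3788 normalized counts in grp fs1, then Slbp 10/12, then Slbp 10/15, against 562 in wt. ema, an endosome gene, ran the same course with a change of 0.33, 0.35 and 0.38 on the log2 scale, so that likeness in shape did not go with likeness in size.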

How the data were processed

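The submitters' notes and the study's methods name FastQC for read quality, TopHat for alignment (BDGP5.78, dm3) and featureCounts for reads per gene. The deposited signal is the normalized count per gene, which the authors made by dividing each library's counts by a size factor (the notes give DESeq and the methods DESeq2). The deposited FPKM values of the mutant table, scaled by the authors by gene length and library size, were used for levels between genes only. Whole reads were recovered by dividing each library by its smallest step (100% whole within 0.01 reads; for Slbp 10/15 replicate 2 the step is near 1, so rounding cannot be told apart) and served for depth, edgeR and DESeq2.

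The members and lists were chosen with earlier results of these data known. Named are the 10 genes, grp and Slbp, neighbours 4-fold off wt in at least 2 mutants, the 4 most abundant genes per list, the 6 next genes by lowest fold, and the 4 genes most alike by Pearson r. limma 3.58.1 (R 4.3.3) fitted all groups of a table with a trended variance. Alternatives were upper quartile scaling, a pseudocount of 5, other filters on low values, edgeR 4.0.16, a replicate block, DESeq2 1.42.0 and fits without each library. The scripts were tested on simulated data. Positions come from the Ensembl annotation of BDGP6.54, matched by gene ID. Promoter and protein sequences were not used here.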

Additional observations from a re-analysis of the deposited data

Results flagged for a closer look

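In 7 of the 10 genes the difference from wt was called as unlike in grp fs1 and the Slbp mutants, beside 35.7% of all tested genes. This was limma's test of the difference itself over 8 libraries, which also took part in choosing the genes. CG30059 was higher in grp fs1, by 1.58 (log2) over the mean of the Slbp mutants. CG12560 was likewise 1.20 higher in grp fs1, and phr6-4 was 0.63 higher. CG32816 differed by -1.27, dpr6 by -0.92, CG13375 by -0.89 and BthD by -0.54, all lower in grp fs1 than in the Slbp mutants. The calls of CG30059, CG12560, CG13375 and BthD were lost without some single library.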

How the results depend on the processing

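No called difference of the 10 genes, between mutants or in wt embryos, changed its direction under any alternative run. At least 4-fold means in each mutant were kept by 10 of 10 genes throughout. Between grp fs1 and the averaged Slbp mutants the 7 calls became 3 to 7 when each library was left out in turn, and they stayed at 6 or 7 under the other alternatives. For Slbp 10/12 against Slbp 10/15 the count was 0 throughout. For nuclear against cytoplasmic extracts the 2 calls became 1 to 4 without single libraries, 5 with at least 5 counts in every library and 4 with DESeq2. For nuclear extracts against early embryos the 1 call became 0 to 2 without single libraries and 0 with at least 5 counts in every library. For cytoplasmic extracts against early embryos the 3 calls became 0 to 3 without single libraries. Called neighbours ranged over 5 to 11 (grp fs1), 2 to 7 (Slbp 10/12) and 5 to 11 (Slbp 10/15), and called list genes over 8 to 26, 10 to 30 and 16 to 39.

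Libraries with the same replicate number showed little shared deviation in the same direction. Deviations of same-numbered libraries correlated at -0.20 to 0.09 in the mutant table and at -0.51 to 0.003 in the other. The -0.51 was that of nuclear and cytoplasmic extracts. Whether those extracts share collections under crossed numbers is not stated in the sources used here and was not tested. With the replicate block the counts of called genes among the 10 were 7, 0, 2, 1 and 2 in the order above, the last from 3. Crossing the nuclear numbers, which was added after seeing the data, gave 4, 1 and 5 in the last 3 comparisons with that block.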
